A study of Mus musculus with 2 samples.

Results

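The epidermal differentiation complex is the cluster of genes on mouse chromosome 3 whose proteins build the outermost, dead layer of the skin. Its members were taken as the protein-coding genes of the GENCODE M21 annotation (mm10) on chromosome 3 whose symbol starts with Lce, Sprr or S100a, plus Flg, Flg2, Lor, Ivl, Rptn, Hrnr, Tchh, Tchhl1, Crct1 and Crnn. This gave 60 genes of 21938 protein-coding genes on the main chromosomes. There were 14 S100a genes, 15 Sprr genes, 21 Lce genes, 7 genes of the fused S100 type (Crnn, Flg, Flg2, Hrnr, Rptn, Tchh and Tchhl1) and the 3 single genes Lor, Ivl and Crct1.

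Open chromatin was measured by DNase-seq, in which DNase I cuts accessible DNA in nuclei and the cut ends are sequenced. The tissue was embryonic facial prominence, the tissue that forms the face, of B6NCrl mice at embryonic day 14.5, with male and female embryos pooled. There was 1 group of 2 biological replicates, 2 separate tissue samples filed under the same donor record, with no other tissue, age or treatment, so every comparison is between genes or regions and carries no p-value. Per replicate, the deposited files are a list of the authors' peaks (regions of 150 bp with a score from 1 to 150) and a list of hotspots (broader open regions with a −log10 q-value that ends at 100). A peak or site is called shared here where the peaks of both replicates overlap by at least 1 bp.

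When a keratinocyte of the epidermis stops dividing and moves outwards, it switches these genes on and cross-links their products under the plasma membrane into the cornified envelope. Loricrin (Lor), involucrin (Ivl), the small proline-rich proteins (Sprr) and the late cornified envelope proteins (Lce) are its building blocks. The fused S100 type proteins, among them filaggrin (Flg) and trichohyalin (Tchh), bind or bundle keratin filaments. The S100a genes at both ends of the cluster encode small calcium-binding proteins, many of which are also made outside the epidermis. In bulk tissue, fewer cells with an open site and weaker opening in each cell cannot be told apart, and a promoter without a called peak is not shown to be closed.

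Promoter sequences of members with and without an open promoter are shown first, because those of Lor, Ivl and most Sprr2 genes carry a TATA box and had no peak, while that of S100a11, with the highest scores among the members, carries none. Each is the 120 bp before the RefSeq start site (GRCm38.p6, the coordinates of mm10), read 5′ to 3′ on the strand of the gene, with TATAAA and the AP-1 motif TGANTCA in capitals. N stands for any base. Lor (chr3:92083143-92083262, minus strand), Ivl (chr3:92573736-92573855, minus), Sprr2d (chr3:92339020-92339139, plus) and Lce1b (chr3:92656927-92657046, minus) had no promoter peak in either replicate. Crnn (chr3:93144669-93144788, plus), Sprr1a (chr3:92485882-92486001, minus) and S100a11 (chr3:93520376-93520495, plus) had a shared promoter peak.
Lor: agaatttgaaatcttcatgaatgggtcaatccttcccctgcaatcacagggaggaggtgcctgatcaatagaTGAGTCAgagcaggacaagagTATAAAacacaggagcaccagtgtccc
Ivl: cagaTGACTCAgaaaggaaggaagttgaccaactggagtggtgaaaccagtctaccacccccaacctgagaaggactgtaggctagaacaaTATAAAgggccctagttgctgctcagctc
Sprr2d: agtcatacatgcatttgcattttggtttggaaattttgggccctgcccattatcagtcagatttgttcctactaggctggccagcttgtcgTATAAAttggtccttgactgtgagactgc
Lce1b: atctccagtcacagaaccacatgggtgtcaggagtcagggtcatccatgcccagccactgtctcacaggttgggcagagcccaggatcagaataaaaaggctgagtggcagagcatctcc
Crnn: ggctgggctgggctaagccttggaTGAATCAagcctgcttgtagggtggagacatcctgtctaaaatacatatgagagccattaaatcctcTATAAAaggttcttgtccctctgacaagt
Sprr1a: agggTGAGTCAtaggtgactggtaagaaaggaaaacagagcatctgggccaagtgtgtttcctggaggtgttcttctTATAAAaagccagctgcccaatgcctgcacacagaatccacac
S100a11: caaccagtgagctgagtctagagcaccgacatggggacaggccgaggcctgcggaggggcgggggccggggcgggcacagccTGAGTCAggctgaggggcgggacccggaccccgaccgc
The TATA box began at position −29 from the RefSeq start site in Ivl, Sprr2d and Crnn, at −27 in Lor and at −43 in Sprr1a. In Sprr1a the RefSeq start lies 14 bp downstream of the GENCODE start from which its peak was measured. Both a TATA box and an AP-1 motif were present in Lor and Ivl, which had no peak, and in Crnn and Sprr1a, which had one. Lce1b held neither.

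Of the 60 members, 14 had a peak within 500 bp of an annotated start site in replicate 1 (23.3%) and 13 in replicate 2 (21.7%), and all 13 were shared. Over all protein-coding genes the shares were 70.9% in replicate 1, 68.7% in replicate 2 and 67.4% shared. Hotspots gave the same counts of members, 14, 13 and 13, beside 71.2%, 69% and 68% of all coding genes. The shared promoters were not spread evenly over the families. They comprised 10 of 14 S100a genes, 1 of 15 Sprr genes, 2 of 7 fused S100 type genes, 0 of 21 Lce genes and none of Lor, Ivl and Crct1. Leaving out the S100a genes, 3 of 46 members had a shared promoter peak (6.52%). For comparison, 17 of 53 keratin genes (32.1%) and 2 of 57 keratin-associated protein genes of hair (3.51%) had one.

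Peak scores of the open member promoters lay below those usual for a promoter. Among the 13 members with a shared peak the median of the highest promoter scores was 90 for replicate 1 and 62 for replicate 2. The medians over all 14795 coding genes with a shared promoter peak were 122 and 111. All 13 members scored higher in replicate 1, the replicate with the longer list, as did 93.3% of all shared sites of the genome.

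**Figure D1:**
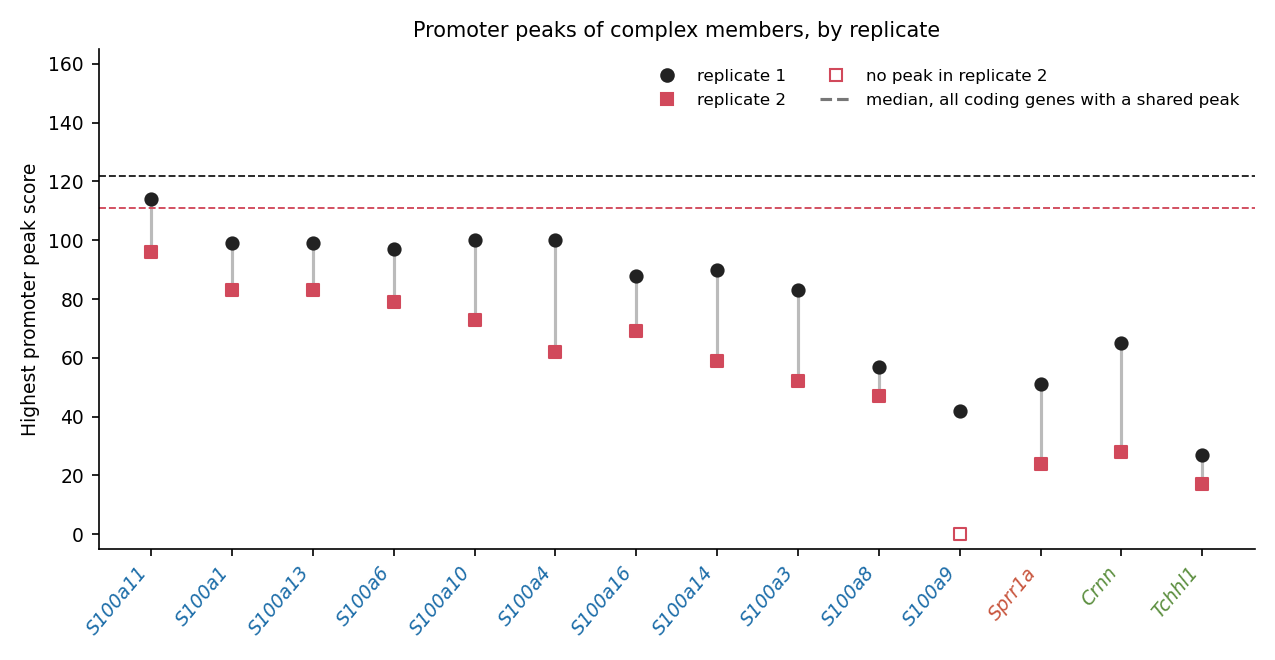
Highest peak score within 500 bp of a start site for each member with a promoter peak (circles, replicate 1; squares, replicate 2; an open square at 0 marks no peak), with dashed lines at the medians of all coding genes with a shared promoter peak, 122 and 111. The S100a genes (blue) reach 114 and 96, both replicates of every member lie below the dashed line of their replicate, and Sprr1a (red), Crnn and Tchhl1 (green) are the only members outside the S100a genes.

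The S100a genes sit in 2 groups, 12 genes from S100a1 to S100a9 at 1 end and S100a11 with S100a10 at the other. S100a11, whose protein is found in many cell types, had the strongest promoter peak, with scores of 114 and 96 in replicates 1 and 2 (ranks at the 95.8 and 94.0 percentile of their lists), centred 37 and 17 bp before its start site. S100a10, the partner of annexin A2, had scores of 100 and 73 at 51 bp after the start. S100a6 (calcyclin) had 97 and 79, and S100a4, known from fibroblasts and migrating cells, had 100 and 62. S100a16 had 88 and 69, and S100a14 had 90 and 59. Of these 6 genes S100a11 scored highest in both lists, while the order of the others differed between the lists: S100a10 and S100a4 came next in replicate 1, and S100a6 in replicate 2.

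S100a1 and S100a13 start beside each other on opposite strands and were assigned the same peak, with scores of 99 and 83. That peak lies in a coding exon of S100a13, 476 to 496 bp after its start. A weaker shared site, chr3:90514316-90514605, lay at the starts themselves, 0.026 kb from that of S100a13, with scores of 61 and 37. S100a3 had scores of 83 and 52 at a start site inside its annotated gene, and its 5′-most start had no shared peak.

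S100a8 and S100a9 encode the 2 chains of calprotectin, abundant in neutrophils and induced in inflamed keratinocytes. S100a8 had the weakest shared promoter peak of the S100a genes, with scores of 57 and 47. S100a9 had a peak in replicate 1 alone, with a score of 42, and the nearest peak in replicate 2 lay 12935 bp from its start. None of 8 markers of neutrophils and other myeloid cells had a shared promoter peak, beside 67.4% of all coding genes. Ptprc had a peak in replicate 2 alone, with a score of 17. S100a2, S100a5 and S100a7a had no promoter peak, although a peak lay 1177 bp from the S100a7a start in both replicates, with scores of 84 and 88.

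Inside several S100a genes the introns held peaks as strong as those at the promoter. In S100a4 a shared intron site 840 bp after the start had scores of 103 and 98, the second above the 62 of the promoter in replicate 2. S100a6 had shared intron sites at 2286 bp (99 and 88), at 10306 and 10266 bp (104 and 79) and at 10606 and 10626 bp (93 and 60) from the nearest of its start sites. S100a11 had one at 543 and 523 bp with scores of 114 and 77, and S100a10 had 5 shared sites away from its promoter peak, from 99 and 52 at 1031 and 1051 bp down to 50 and 32 at 2231 bp. By contrast, S100a8 had no peak inside the gene other than its promoter peak, and S100a7a had a single intron peak, in replicate 2, with a score of 25. The long gene body of S100a3 held a shared site with scores of 94 and 53 before its internal start.

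Outside the S100a genes the 3 open promoters had a lower mean percentile than every shared S100a promoter. In replicate 1 alone, Crnn (65) scored above S100a8 (57). Sprr1a, a small proline-rich protein also induced by stress and injury, had scores of 51 and 24. Crnn (cornulin), a fused S100 type protein of squamous epithelia, had 65 and 28. Tchhl1, a relative of trichohyalin, had 27 and 17, which rank at the 5.42 and 4.21 percentile of the 2 lists. All 3 fell out when peaks below the median score of their list (50 and 37) were left out, because at least 1 of their scores lay under it. All 10 S100a promoters remained shared under that setting.

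No promoter peak was called in either replicate for 46 members. They comprised the 11 Sprr2 genes (Sprr2a1, Sprr2a2, Sprr2a3, Sprr2b, Sprr2d, Sprr2e, Sprr2f, Sprr2h, Sprr2i, Sprr2j-ps and Sprr2k), Sprr1b, Sprr3, Sprr4, Lor, Ivl, Crct1, Flg, Flg2, Hrnr, Rptn, Tchh, S100a2, S100a5 and S100a7a. The rest were the 14 Lce1 genes (Lce1a1, Lce1a2, and Lce1b to Lce1m), the 6 Lce3 genes (Lce3a to Lce3f) and Lce6a. The median distance from their start sites to the nearest peak was 10.8 kb in replicate 1 and 17.5 kb in replicate 2. The largest distance was 106 kb, at Sprr2a3, in both replicates. Only 7 of the 46 had a peak within 5 kb in both replicates: S100a2, S100a5, S100a7a, Lor, Crct1, Lce1m and Tchh. Of the 36 Sprr and Lce genes, 1 had a peak inside the gene, Sprr1b, with a score of 20 in replicate 1 alone.

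Members of the cluster share sequence, and a promoter that is repeated elsewhere can lose reads that map to several places. Uniqueness was therefore measured as the share of 32-base words of a promoter that occur once in the genome. The words were taken within 500 bp of the 5′ end of the gene, whereas peaks counted at any annotated start site. In 54 of 60 members at least 90% of promoter words were unique. The exceptions were 5 Sprr genes and 1 Lce gene, with 3 Sprr genes under 50%. Among the 40 members outside the S100a genes with at least 90% unique promoters, 3 had a shared peak. Read length is not known here, so the words are a stand-in for mappability, and the part of mappability in the counts was not tested.

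The promoters were poor in CpG. The ratio of observed to expected CpG had a median of 0.12 over the members (0.19 in the S100a genes and 0.11 in the others), and 0.55 over all coding genes. The ratio was taken within 500 bp of the 5′ end of each gene, whereas a shared peak counted at any annotated start site. The promoter with the peak is thus not always the one whose ratio was taken. Below a ratio of 0.25, 1249 of 6264 coding genes had a shared promoter peak (19.9%). Of the 55 members in that class, 8 did, made up of 5 of 9 S100a genes and 3 of 46 others. The 5 S100a genes include S100a3, whose shared peak lay at an internal start. The 5 members with a ratio of 0.25 or more were all S100a genes and all had a shared peak, beside 59.7% of coding genes from 0.25 to 0.5 and 93.0% from 0.5 to 0.75. Among genes with a ratio below 0.5 and at least 90% unique promoters, 44.2% of 7105 coding genes had a shared peak. In that set, 11 of 52 members and 3 of 40 members outside the S100a genes had one. The 44.2% pools the classes below 0.25 and from 0.25 to 0.5, whereas all members outside the S100a genes lie below 0.25. It is therefore not a matched share for them, and unique promoters below 0.25 were not counted alone.

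Motif letters differed between families. In windows from 250 bp before to 50 bp after the start, searched on both strands, TATAAA was present in 25 of 60 members (41.7%) and in 12.6% of all coding promoters. It was present in 12 of 15 Sprr genes, in all of Lor, Ivl and Crct1, in 4 of 7 fused S100 type genes, in 4 of 21 Lce genes and in 2 of 14 S100a genes. The AP-1 letters TGANTCA were present in 19 of 60 members (31.7%) and in 6.91% of all coding promoters. They were present in 10 of 15 Sprr genes, 5 of 7 fused S100 type genes and in none of the 21 Lce genes. Of the 60 members, 54 were matched in the RefSeq promoter table. The RefSeq start lay within 10 bp of the GENCODE start in 43 members, and farther off in the other matched members. Among the 54, TATAAA began 20 to 40 bp before the RefSeq start in 9 of 14 Sprr genes and in both Lor and Ivl. It did so in 2 of 20 Lce genes. The share over all RefSeq promoters was 2.50%. A match is a description of the letters and does not show a bound factor.

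The shared site of highest mean rank in the complex lay in the coding sequence of Tchh, the trichohyalin gene, whose protein hardens the inner root sheath of the hair follicle. Its mean percentile over both lists was 95.1, close to the 94.9 of the S100a11 promoter site. It scored highest of the span in replicate 1 (128), whereas in replicate 2 (89) it came after the S100a4 intron site (98) and the S100a11 promoter (96). Coding exons of Lor and of Crct1 (cysteine-rich C-terminal 1) held further sites, although no promoter peak was called for any of the 3 genes. The strongest site of each is shown on the strand of its gene, and in Tchh the letters GCCNNNGGC (TFAP2, both strands) are in capitals. The Tchh site is chr3:93444716-93444885 (plus strand, GC content 63.5%), the Lor site chr3:92080936-92081085 (minus, 76.0%) and the Crct1 site chr3:93014536-93014705 (minus, 67.6%).
Tchh exon site: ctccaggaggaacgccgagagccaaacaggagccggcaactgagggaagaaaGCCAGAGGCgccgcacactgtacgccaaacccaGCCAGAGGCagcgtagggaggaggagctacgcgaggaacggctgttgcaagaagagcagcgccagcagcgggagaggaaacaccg
Lor exon site: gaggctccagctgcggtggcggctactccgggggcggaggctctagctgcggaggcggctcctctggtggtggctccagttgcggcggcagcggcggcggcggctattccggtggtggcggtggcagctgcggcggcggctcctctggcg
Crct1 exon site: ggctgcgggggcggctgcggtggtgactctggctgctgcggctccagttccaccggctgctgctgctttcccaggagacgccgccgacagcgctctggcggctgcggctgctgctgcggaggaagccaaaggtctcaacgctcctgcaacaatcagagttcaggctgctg
All 3 are rich in the letters CG: the ratio of observed to expected CpG in the central 150 bp was 0.82 in the Tchh site, 0.88 in the Lor site and 0.73 in the Crct1 site. The Lor and Crct1 sites held none of the motifs searched. GCCNNNGGC was present in 7.20% of the windows of 150 bp at all shared sites of the genome.

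In Tchh, 13 peaks of replicate 1 and 11 of replicate 2 lay inside the gene, every one of them in the long coding exon (chr3:93443393-93448051). They formed 8 shared sites, the first centred 1401 bp and the last 5341 bp after the start site. Their scores were highest at the site printed above (128 and 89). The lowest were 43 in replicate 1, at the site centred at 4551 bp, and 32 in replicate 2, at 1701 bp. A site takes the highest score of its merged peaks in each replicate. Single peaks merged into the site at 4551 bp scored as low as 39 in replicate 1 and 20 in replicate 2. At 4551 bp, 21.3% of the words in the central 150 bp were unique. Hotspots covered 61.0% of the gene in replicate 1 and 60.9% in replicate 2. Lor had 2 shared sites in its coding exon (chr3:92080520-92081977), with scores of 91 and 86 at 2131 bp and 74 and 67 at 1361 bp from the start. Hotspots covered 60.4% and 51.7% of Lor. Crct1 had 1 shared site with scores of 102 and 85, about 1.07 kb from the start, and hotspot cover of 49.0% and 52.1%. With a promoter window of 1000 bp in place of 500 bp this exon peak counted as a promoter peak of Crct1.

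**Figure D2:**
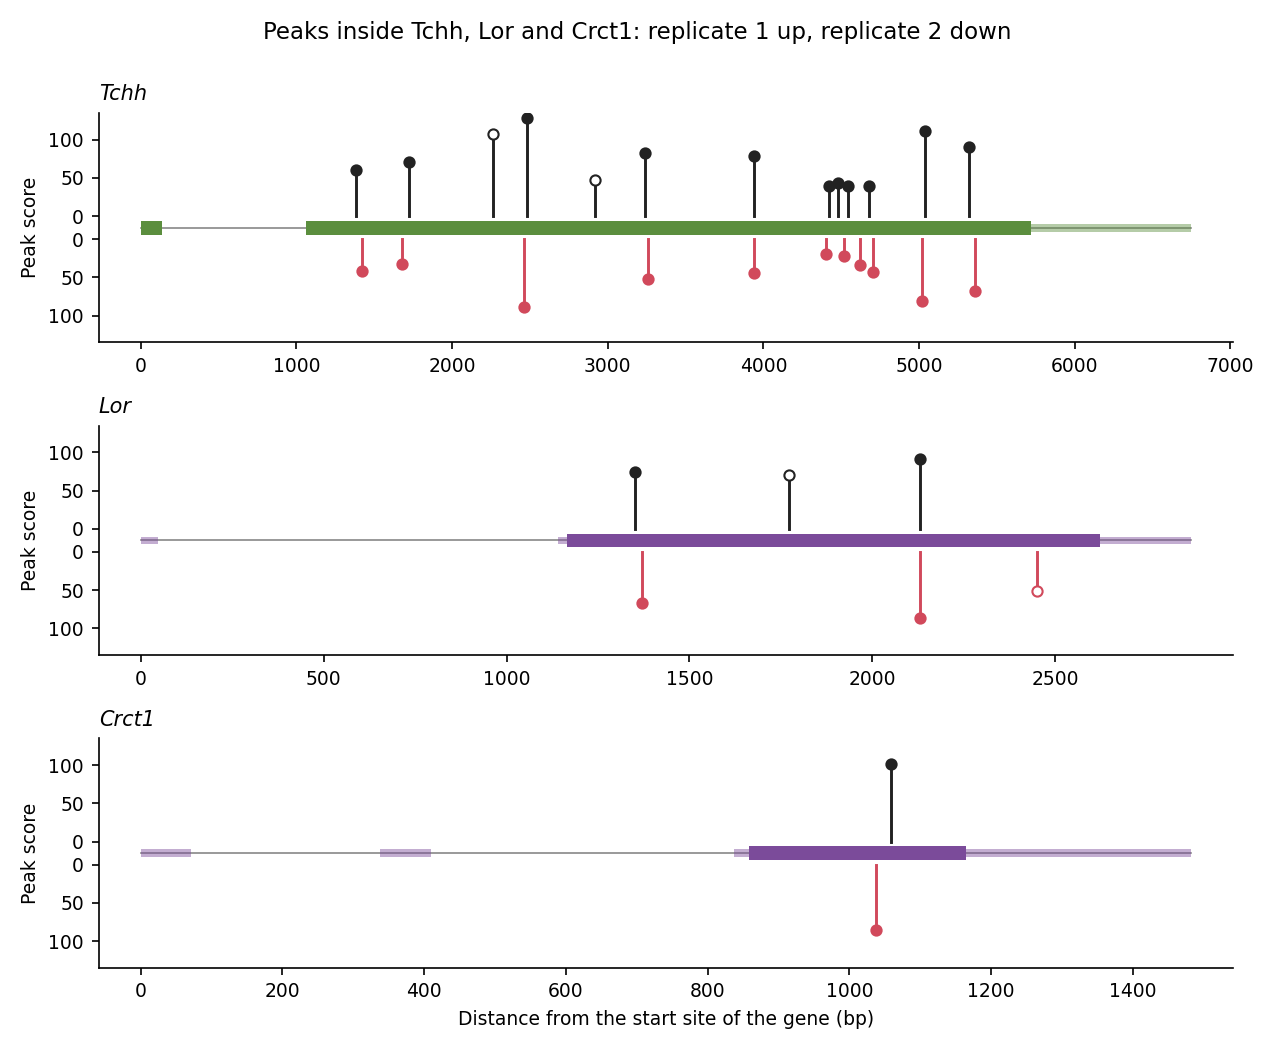
Peak scores inside Tchh, Lor and Crct1 against the distance in bp from the start site of the gene (up, replicate 1; down, replicate 2; filled circles, peaks shared with the other replicate; thick bars, coding exons; pale bars, untranslated exons). All peaks stand over the coding exon, from 1381 bp to 5361 bp in Tchh, and none stands at a start site.

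Shared sites in coding exons were found in 4 of 60 members (6.67%), the fourth being S100a13 with the peak described above, and in 15.6% of all coding genes. Most of those genes held few. Only Syne1 and Tchh had 8 or more such sites among the 21938 coding genes, and 84.4% of genes had none. Over all coding exons of at least 300 bp that lie more than 500 bp from every start site, 6.62% held a shared site (744 of 11238). That share was 2.18% below a CpG ratio of 0.25, 4.35% from 0.25 to 0.5, 9.03% from 0.5 to 0.75 and 42.2% at 0.75 and over. Of 30 such exons of members, those of Tchh and Lor were the 2 in the highest class and that of Crct1 the single one from 0.5 to 0.75. All 3 held a site. The other 27, in the lower classes, held none. The repeat exons of Flg were not among the 30, since annotated start sites lie near them.

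The CpG ratio was 0.85 in the long Tchh exon, 0.84 in the Lor exon and 0.60 in the Crct1 exon, with GC contents of 60.7%, 72.9% and 67.6%. The coding exons of Lce and Sprr genes had a similar GC content but few CpG. The Lce1b exon, for example, had 63.5% GC and a ratio of 0.10, and the Sprr1a exon 64.1% GC and 0.07. The exon of Ivl had a ratio of 0.05 and that of Crnn 0.07. The repeat exons of Flg came nearest with ratios up to 0.55, but in 6 of the 7 Flg exons with a ratio of 0.48 or more at most 20.8% of words were unique. Whether this affected calls there was not tested. Uniqueness was 81.3% in the Tchh exon, 99.7% in Lor and 100% in Crct1.

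**Figure D3:**
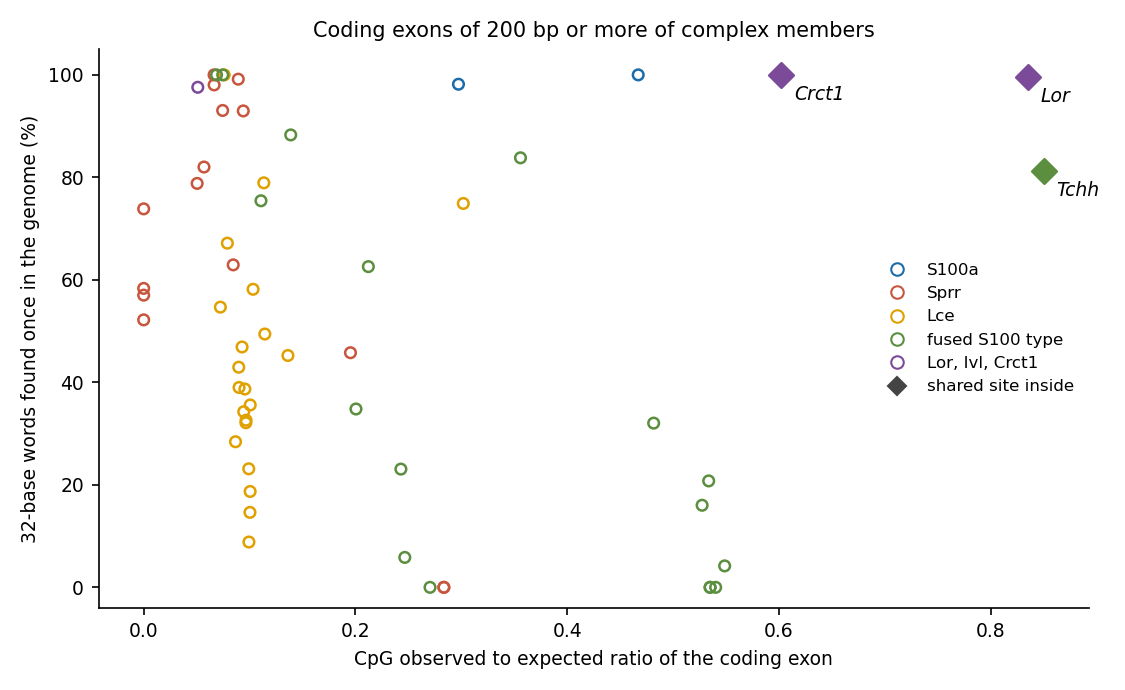
CpG ratio of each coding exon of 200 bp or more of the members (horizontal) against the percentage of its 32-base words that occur once in the genome (vertical), coloured by family, with filled diamonds for exons that hold a shared site. Crct1 (0.60), Lor (0.84) and Tchh (0.85) have the highest ratios, and the Lce and Sprr exons lie at 0.30 or below.

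From the first to the last member the complex spans chr3:90511034-93564643, or 3053.61 kb. It held 188 peaks of replicate 1 and 139 of replicate 2, of which 61.7% and 84.9% were shared, close to the 59.2% and 83.6% of the main chromosomes. These formed 112 shared sites, or 3.67 per 100 kb, against 6.25 on chromosome 3 and 6.51 on all main chromosomes. Hotspots covered 1.73% and 1.21% of the span, against 3.18% and 2.19% of the main chromosomes. By the midpoint, 14 sites lay at member promoters, 2 at other promoters, 12 in exons, 29 in introns and 55 between genes. Median scores of the 112 sites were 63 and 46.5, against 63 and 41 over all shared sites. In the top 10% of both lists were 7 of the 112 sites (6.25%), against 10.7% of all shared sites. From Lor to Tchhl1 there were 60 sites, or 4.31 per 100 kb. Median percentiles of the 112 sites were 68.9 and 66.0, against 68.9 and 58.1 over all shared sites. The span thus held fewer sites per length than the main chromosomes and a smaller share of sites in the top class of both lists, while its median rank was the same in replicate 1 and higher in replicate 2.

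**Figure D4:**
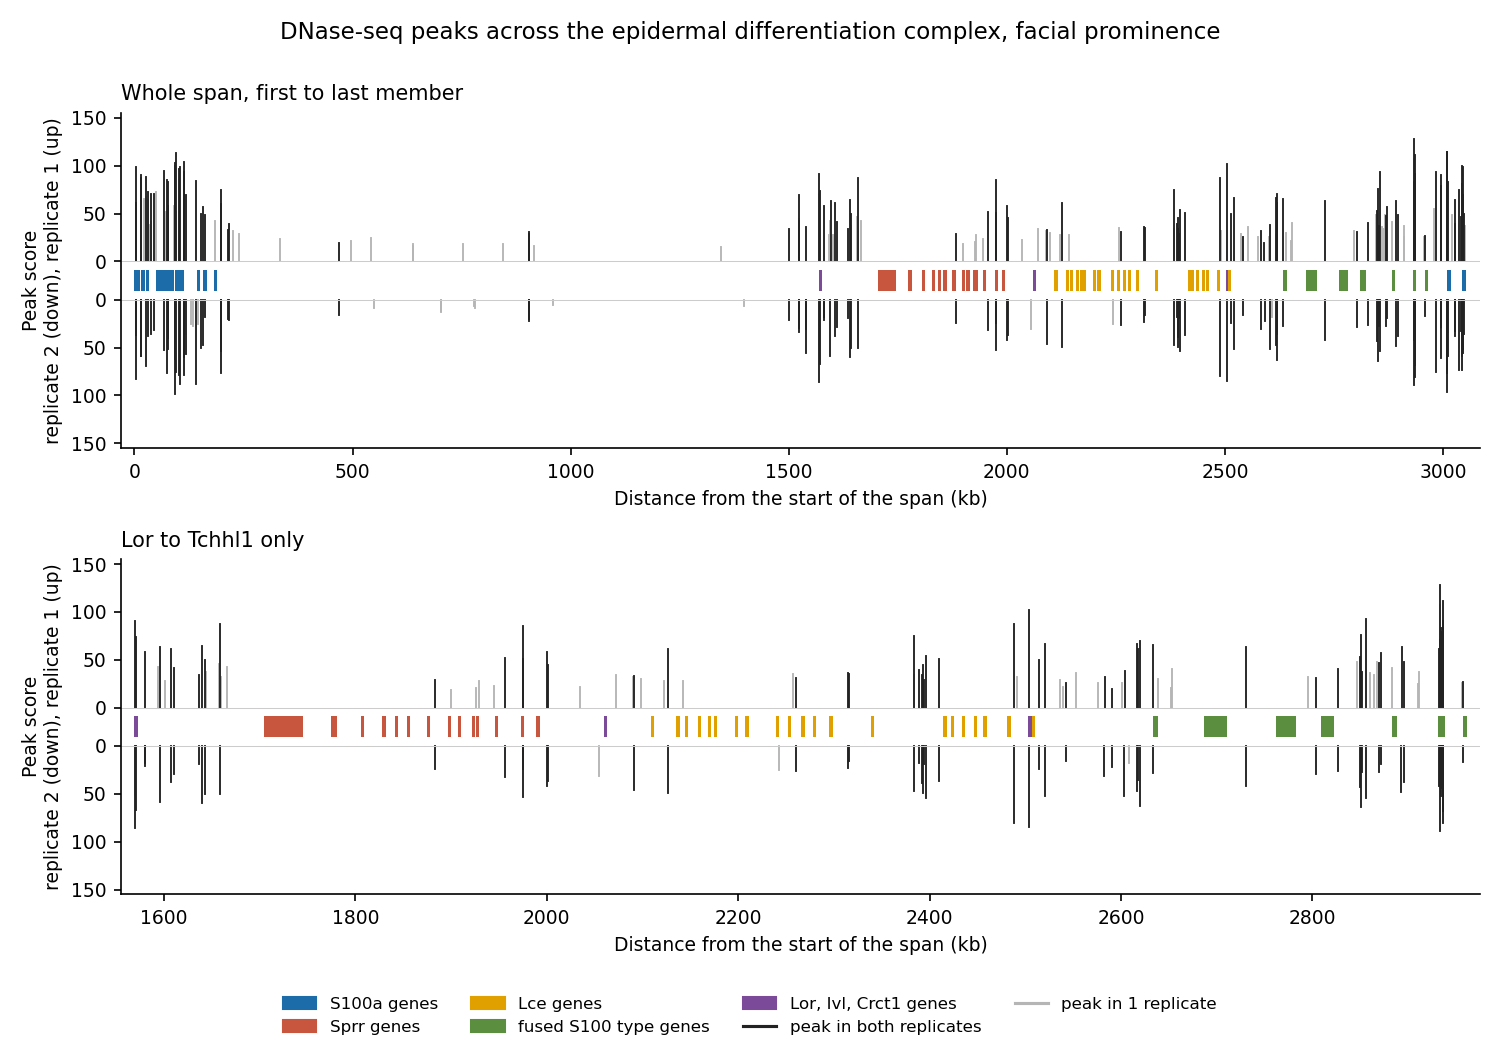
Score of every peak against the distance in kb from the start of the span (replicate 1 up, replicate 2 down; black, shared; grey, in 1 replicate), with genes as coloured boxes, for the whole span and for Lor to Tchhl1. Peaks crowd at the S100a genes at both ends and over Tchh, and are sparse across the stretch of 1385 kb between S100a9 and Lor and over the Sprr2 and Lce1 genes.

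Density varied widely along the cluster. The S100a10 and S100a11 block (44.2 kb) held 14 shared sites, or 31.7 per 100 kb, and the S100a1 to S100a9 block (185 kb) held 24, or 13.0 per 100 kb. Both exceeded the 6.51 of the main chromosomes. The fused S100 type block from Crnn to Tchhl1 held 21 sites, or 6.42 per 100 kb, of which 8 were those in the Tchh exon. The Lce block from Lce6a to Lce3f (373 kb) held 11 sites, or 2.95 per 100 kb, and the Sprr block from Sprr2a1 to Sprr4 (285 kb) held 4, or 1.41 per 100 kb. The stretch of 1385 kb between S100a9 and Lor held 10, or 0.722 per 100 kb. Unique words made up 58.5% of that stretch, 64.2% of the Sprr block and 84.2% of the Lce block, compared with 93.4% of the S100a1 to S100a9 block and a mean of 81.2% over 2652 windows of 1 kb spaced along the genome. The part of uniqueness in these densities was not tested.

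**Figure D5:**
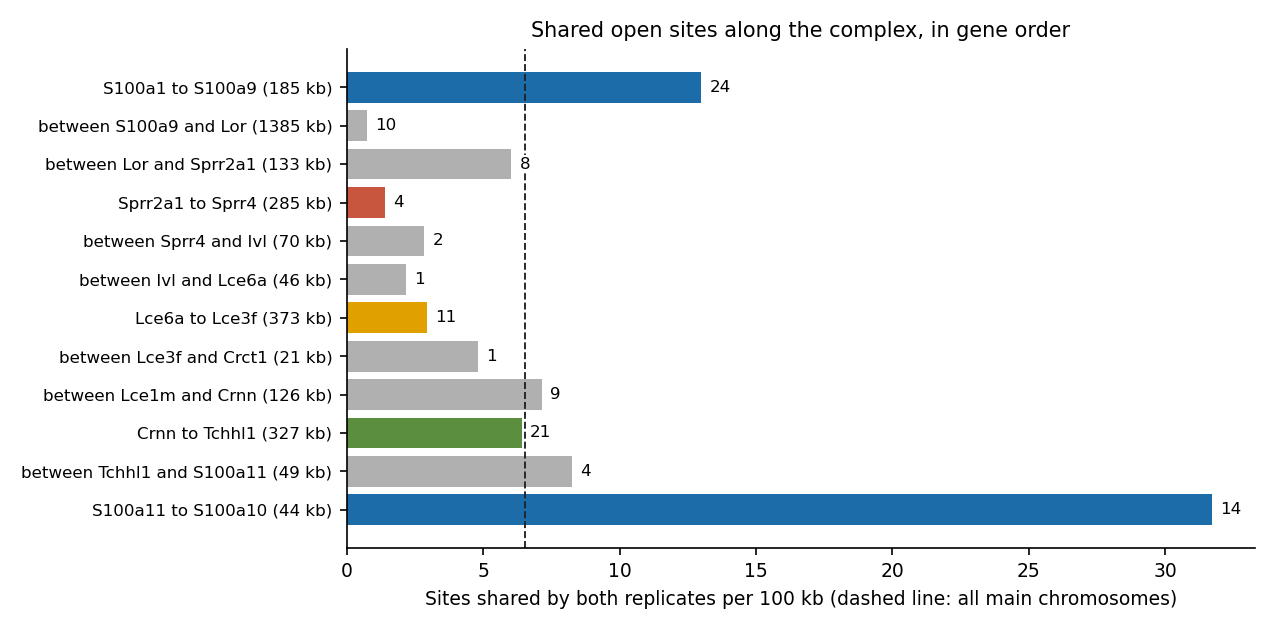
Shared sites per 100 kb in each stretch of the complex of at least 20 kb, in gene order, with the number of sites beside each bar and a dashed line at 6.51 for the main chromosomes. The S100a blocks (blue) reach 13.0 and 31.7, and the Sprr block (red, 1.41) and Lce block (yellow, 2.95) stay below the line.

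The longest stretches of the span without a peak in either replicate were 384.81 kb with no coding gene and 217.31 kb that held 8 Sprr2 genes, Sprr2a1 to Sprr2h. In the latter, 49.9% of words were unique. A further 99.35 kb without a peak held 7 Lce1 genes, Lce1a2 and Lce1b to Lce1g, and there 83.4% of words were unique. Across the main chromosomes the median gap between peaks was 2.73 kb, and 0.0873% of gaps were as long as the Sprr2 gap or longer. At the other extreme, 9 shared sites lay within 10 kb at S100a10, where the median over the genome was 2 and 0.674% of sites began a stretch with as many.

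Between genes the span held 55 shared sites, or 2.25 per 100 kb of intergenic sequence, against 4.56 on chromosome 3 and 4.44 on the main chromosomes. From Lor to Tchhl1, leaving out the S100a ends, there were 30, or 3.15 per 100 kb. Median scores of the 55 sites were 54 and 39. The median distance to the nearest member start was 15.06 kb, with 8 sites within 5 kb, 17 within 10 kb, 34 within 20 kb and 48 within 50 kb. Which gene a site serves cannot be read from its distance.

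Of the 10 intergenic sites of highest mean rank, 8 lay outside the Lor to Tchhl1 stretch. The first by mean rank was chr3:90606256-90606425, 0.295 kb past the end of S100a4 and 2.18 kb before S100a5, with scores of 113 and 76. The site chr3:90652976-90653125, 0.966 kb before S100a7a, had 84 and 88. Between Tchhl1 and S100a11 lay chr3:93494076-93494245 with 93 and 76 and chr3:93507076-93507245 with 90 and 61. Between S100a11 and S100a10 lay chr3:93547196-93547365 with 75 and 73 and chr3:93553996-93554165 with 81 and 59, the latter 0.999 kb before S100a10. The site chr3:90525556-90525705 between S100a13 and S100a14 had 87 and 59, and chr3:90710176-90710325, 14.5 kb beyond S100a9, had 75 and 77.

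The other two of the 10 sites lay inside the Lor to Tchhl1 stretch and are shown as the highest-ranked intergenic sites among the envelope genes. The site between Lce3f and Crct1 (chr3:92998796-92998945, plus strand) had scores of 87 and 80, 5.44 kb from the end of Lce3f. The site upstream of Sprr1a (chr3:92486436-92486645, plus strand) had scores of 85 and 53, 0.646 kb from the Sprr1a start. Capitals mark KLF letters (GGGNGTGG) and GRHL letters (AACCNGTT), on either strand.
Lce3f to Crct1 site: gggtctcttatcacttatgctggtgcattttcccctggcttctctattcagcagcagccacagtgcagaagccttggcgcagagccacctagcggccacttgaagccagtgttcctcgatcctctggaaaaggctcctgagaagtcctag
Sprr1a upstream site: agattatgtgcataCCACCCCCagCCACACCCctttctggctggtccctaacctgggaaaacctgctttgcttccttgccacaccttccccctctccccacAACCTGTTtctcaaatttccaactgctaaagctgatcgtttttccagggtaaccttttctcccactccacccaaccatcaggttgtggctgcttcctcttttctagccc
The Sprr1a site held a GRHL match and, at its edge and outside the central 150 bp, KLF matches read from the opposite strand, and the Lce3f to Crct1 site held none of the motifs searched. In windows of 150 bp centred on the 55 intergenic sites, GRHL letters were present in 3 (5.45%) and in 1.76% of all intergenic shared sites. AP-1 letters were present in 4 (7.27%) and in 6.89% of all intergenic sites, and KLF letters in 3 (5.45%) and in 5.30%. ETS letters (GGAAGT) were present in 1 (1.82%) and in 10.7% of all intergenic sites. KLF letters were present in 0 of the windows of all 60 shared sites from Lor to Tchhl1, between genes or not. Over all 112 shared sites of the span, AP-1 letters were present in 12 (10.7%, against 5.95% of all shared sites) and GRHL letters in 5 (4.46%, against 1.66%). Lower shares were seen for ETS letters (6.25% against 11.1%), TFAP2 letters (4.46% against 7.20%) and the p53 family half-site (1.79% against 5.66%). These shares rest on few sites and were not tested.

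Regulators known to act in epidermal differentiation had open promoters in the same tissue. All 24 listed regulators had a shared promoter peak, beside 67.4% of all coding genes. Among coding genes with a CpG ratio from 0.5 to 0.75 that share was 93.0%, and at 0.75 and over it was 97.5%. The listed genes were not compared with genes of like CpG ratio. Smarca4, a chromatin remodeller, had scores of 146 and 144, Chuk (IKKα) had 134 and 128, and Grhl1, a grainyhead-like factor, had 136 and 126. Trp63, the p63 gene of the epithelial lineage, had the lowest rank of that list with 68 and 40. Of 22 cornified envelope and barrier genes outside the complex, 13 had a shared promoter peak (59.1%). Aloxe3, a lipoxygenase of the skin barrier, had 119 and 91, Cldn1 (claudin 1) had 95 and 90, and Elovl4, a fatty acid elongase, had 108 and 78. In the same list, Cdsn, Klk7, Sbsn, Spink5 and Tgm3 had none, and Abca12, Dmkn, Dsg1a and Klk5 had a peak in replicate 1 alone.

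Keratin genes varied. The basal keratins Krt5 (71 and 43), Krt14 (70 and 62) and Krt15 (62 and 33) each had a shared promoter peak. Of the suprabasal keratins, Krt10 had a shared peak (121 and 113), Krt1 (43) and Krt77 (41) had a peak in replicate 1 alone, and Krt2 had none. Of 6 keratins of periderm and simple epithelia, 4 were shared, led by Krt8 with 88 and 47. Markers of the labelled tissue were open, with 8 of 8 facial mesenchyme genes and 6 of 6 surface epithelium genes shared. Of 5 genes of stratified differentiated epidermis, 3 were shared. The lists overlap, so these counts are not separate. All 5 genes of differentiated epidermis are also among the suprabasal keratins or the cornified envelope genes. Trp63, Krt5 and Krt14 of the surface epithelium list are also among the regulators or basal keratins. Over all coding genes the share was 67.4%. These short lists were not compared with genes of like CpG ratio. The share of epidermal cells in the tissue was not measured.

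The span holds 15 further coding genes. Kprp, a keratinocyte proline-rich protein gene within the Lce block, was the single one with a shared promoter peak, with scores of 35 and 16. Among 46 genes of other types, the long noncoding RNA gene Gm35439 between Lor and Sprr2a1 had a shared promoter peak with 87 and 50, above those of Sprr1a, Crnn and Tchhl1. It lies at the edge of the peakless stretch over the Sprr2 genes.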

How the data were processed

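DNase-seq regions of 2 biological replicates were used as the authors deposited them. The deposited peak lists hold 150 bp regions with the authors' score, for which no normalization is stated, and it was used to rank and describe peaks within a list. The deposited hotspot lists hold the −log10 of a q-value, per the file format, with a ceiling of 100. Each replicate was called by itself, per the deposited descriptions. Neither the aligner nor the caller is given in the sources used here, and depth is unknown. Instruments are listed for replicate 1 only.

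Regions off the main chromosomes and repeated coordinates were left out, which left 304233 and 217980 peaks and 277933 and 198482 hotspots. Start sites (of the basic transcripts; in Flg these lie inside the gene, and the 5′ end of the gene had no shared peak either), exons and genes came from GENCODE M21, and sequence from GRCm38.p6 and the RefSeq promoter table. Python 3.11.15, numpy 2.4.6 and matplotlib 3.10.9 were used, and the overlap, promoter, word and motif functions were tested on simulated data. Shared peaks that overlap were merged into sites, which take the highest score of their peaks in each replicate. A percentile is the rank within a replicate's own list. Coordinates are 1-based.

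With 1 group, no test between conditions was possible and none was made. The members, gene lists and motifs were chosen with earlier results of these data known. Named are every member, the 10 intergenic sites of highest mean rank and other genes of the span with a shared promoter peak. The lists of regulators and of cornified envelope genes name the 3 genes of highest mean rank. The cornified envelope list also names every gene without a shared peak. Basal and suprabasal keratins are all named, and the other lists are named in part or by counts alone. Trp63 and Syne1 were named after their values were seen. The class comparison of all coding exons was added after the values were seen. Alternatives were a larger overlap, stronger peaks, lists of about equal length, hotspots, each replicate alone, other promoter windows, 1 start site per gene and a span without the S100a ends.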

Additional observations from a re-analysis of the deposited data

How the results depend on the processing

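The number of members with a shared promoter peak, 13, lay between 10 and 14 under all 9 alternatives, and the Lce genes had 0 under each of them. The status of 6 members changed under at least 1 alternative. S100a3 was lost with 1 start site per gene, S100a9 was gained in replicate 1 alone, Crct1 was gained with a promoter window of 1000 bp, Sprr1a, Crnn and Tchhl1 were lost among peaks at or above the median score of their list, and Tchhl1 also when replicate 1 was limited to its 222647 highest-scoring peaks. The 112 shared sites of the span became 65 among peaks at or above the median score and 60 between Lor and Tchhl1. The 55 intergenic sites became 25 and 30 under the same settings. With each replicate alone the span held 131 to 183 sites, 69 to 94 of them intergenic, and hotspot cover was 1.21% to 1.73%, against 1.07% covered in both. By construction, the alternatives keep fewer peaks, a shorter span or 1 list, or change the overlap, the promoter window or the start sites counted. What moved each result was not tested. No paired analysis was possible because the series has 1 group. Read depth is unknown, and its effect on the regions called was not tested.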
